A study of Mus musculus with 6 samples.

Results

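The p53 pathway was examined through 10 genes, Trp53 itself, its inhibitors Mdm2 and Mdm4, and the target genes Cdkn1a, Gadd45a, Ccng1, Sesn1, Phlda3, Trp53inp1 and Zmat3, of 38828 genes with a row in the count tables. The genes were chosen by name, and the deposited counts of all transcripts of a gene were summed. The cells were Hepa1-6, a mouse hepatoma line used as a model of liver cells, grown in DMEM with 4.5 g/L glucose and 10% serum. In 3 libraries the cells had received siRNA against Crebl2, a bZIP factor of the CREB kind, and in 3 libraries siRNA against Renilla luciferase (Luc siRNA), a sequence that mouse cells lack. Both groups were transfected with Lipofectamine RNAiMAX and harvested after 3 days, so both had undergone the same transfection. The labels give no siRNA sequence, do not say whether libraries came from separate cultures, and name no agent that damages DNA. The p-values here therefore cover the variation among these libraries and no more, and that variation may be technical.

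p53 is a transcription factor whose activity is set mainly at the protein level. In unstressed cells the ubiquitin ligase Mdm2 marks it for degradation, and Mdm4 binds and masks its activation domain. DNA damage and other stresses release it, and it then switches on genes that halt the cell cycle, repair DNA, limit oxidative and metabolic stress or kill the cell, as well as Mdm2, which closes a negative feedback loop. In liver, p53 is known as a barrier to tumour growth. The mRNA of p53 and its targets was measured here, not the protein.

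p53 binds DNA as a tetramer at a pair of decamers, each made of 3 purines, C, 2 letters that are A or T, G and 3 pyrimidines. This element of 20 letters, with no spacer and with the C and G of both decamers intact, was searched in RefSeq promoter windows of build GRCm38.p6, from 250 bases before to 50 bases after each annotated start. The pattern is its own reverse complement, so that 1 pass covers both strands, and no other motif was searched. With at most 1 mismatch it was present in 22 of 32851 windows (0.067%), and with at most 3 mismatches in 453 (1.38%). Of the 10 genes, 8 had a window, 11 windows in all, and Trp53inp1 and Zmat3 had none in the table used. The windows of Cdkn1a (its upstream start) and Ccng1 held the element with 1 mismatch, and those of Trp53 and of the downstream Sesn1 start with 3. The 3 windows printed here are those of Ccng1 and Cdkn1a, which hold the element, in capitals, and that of Gadd45a, the gene of the set with the largest change, which holds none with up to 3 mismatches. They are written 5′ to 3′ on the strand of the gene.
Cdkn1a, upstream start, chr17:29090729-29091028, plus strand: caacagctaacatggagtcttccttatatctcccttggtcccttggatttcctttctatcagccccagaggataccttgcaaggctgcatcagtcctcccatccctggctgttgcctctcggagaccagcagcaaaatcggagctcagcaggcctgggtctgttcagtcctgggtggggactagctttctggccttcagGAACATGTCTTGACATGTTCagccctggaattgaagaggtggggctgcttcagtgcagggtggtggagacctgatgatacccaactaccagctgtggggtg
Ccng1, chr11:40755237-40755536, minus strand: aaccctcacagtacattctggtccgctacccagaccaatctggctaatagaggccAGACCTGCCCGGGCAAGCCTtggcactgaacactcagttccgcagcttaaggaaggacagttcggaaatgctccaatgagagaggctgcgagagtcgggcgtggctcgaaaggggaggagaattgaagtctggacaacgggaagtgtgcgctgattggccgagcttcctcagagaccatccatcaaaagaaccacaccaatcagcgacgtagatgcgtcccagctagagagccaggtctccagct
Gadd45a, chr6:67037358-67037657, minus strand: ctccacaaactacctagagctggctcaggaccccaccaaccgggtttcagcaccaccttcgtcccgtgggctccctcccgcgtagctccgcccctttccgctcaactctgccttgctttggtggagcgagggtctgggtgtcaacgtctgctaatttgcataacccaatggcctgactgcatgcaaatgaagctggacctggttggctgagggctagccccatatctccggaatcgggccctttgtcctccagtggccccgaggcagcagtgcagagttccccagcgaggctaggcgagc
These matches are descriptions of letters and not measured binding sites, and elements of p53 targets often lie in introns or far upstream, outside such windows.

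Of the 10 genes, 7 had enough counts to be tested. Every transcript row of the set without an exonic base of its own, meaning one that no other listed transcript covers, held 0 counts. The 4 listed transcripts of Trp53 have 0 such bases and 0 counts in all 6 libraries, which says nothing about the level of p53 mRNA. Mdm2, the ubiquitin ligase that degrades p53, has 46 such bases, all in the 5′ UTR of exon 3 of 1 of its 2 transcripts. Its counts were 3, 8 and 3 in the Crebl2 siRNA libraries and 10, 4 and 6 in the Luc siRNA libraries, a ratio of 0.701 with a 95% exact binomial interval of 0.327 to 1.46, which covers counting error only. Zmat3, a zinc finger RNA-binding protein, has 125 such bases and held 2, 1 and 0 counts in the Crebl2 siRNA libraries and 0, 0 and 1 in the Luc siRNA libraries. Neither gene passed the filter on low counts, and a difference in them was not detectable with so few counts on so few bases of their own.

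**Figure D1:**
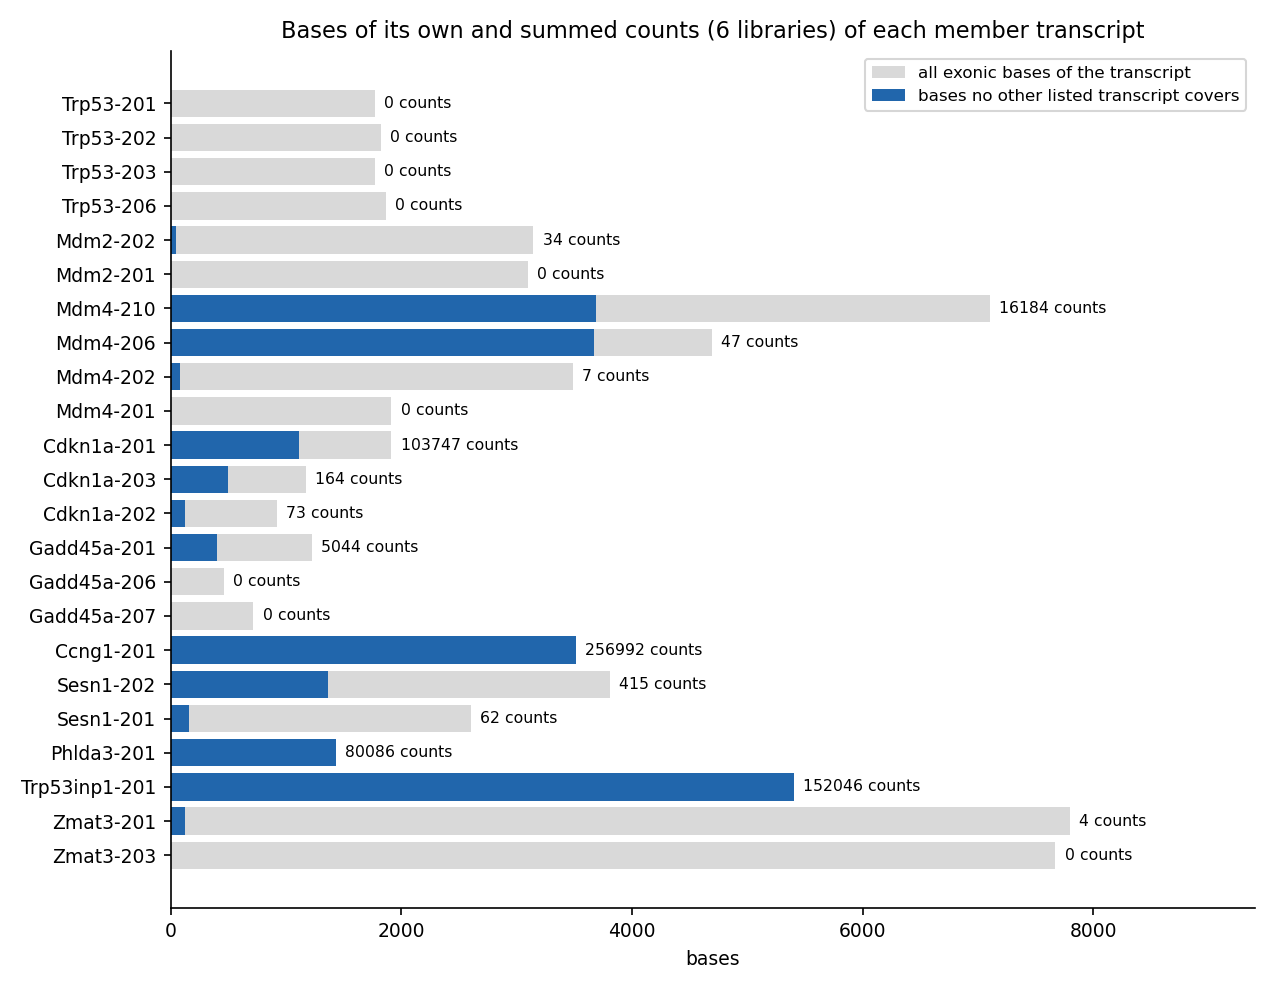
Exonic bases of each listed transcript of the 10 genes (grey bars, in bases), the bases that no other listed transcript covers (blue bars) and the counts summed over the 6 libraries (numbers at the bars). Trp53 has 0 bases of its own and 0 counts, and Ccng1, Phlda3 and Trp53inp1 have a single listed transcript that is counted over its whole length.

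Per-library depth was 27082572 to 27710914 counts with Crebl2 siRNA and 27385328 to 29158489 with Luc siRNA. Crebl2 itself checked the labels, at 30.4 ± 1.69 CPM (counts-per-million) in Crebl2 siRNA libraries and 113 ± 0.858 CPM in Luc siRNA libraries (SD, n = 3 each; 26.9% of the Luc siRNA level; edgeR adjusted p = 2.82e-12). Crebl2 siRNA replicate 2 stood apart, with 0.859% of its counts on mitochondrial genes against 2.09 to 2.52% in the other 5 libraries. Of 10 hepatocyte markers, Alb, Afp, Trf and Foxa3 were well counted, and Apoa2, Hnf4a and Serpina1a were at 0, with 45, 6 and 221 bases of their own. Apoa1, Ttr and Ahsg held only 106, 39 and 22 counts over the 6 libraries, although they have 1035, 1186 and 1484 bases of their own. The summed hepatocyte markers ran from 1038 to 1120 CPM with Crebl2 siRNA and from 1068 to 1153 CPM with Luc siRNA, but its members moved apart. Afp rose (log2 fold change 0.36, edgeR adjusted p = 9.26e-06), Trf (-0.42, adjusted p = 7.26e-05) and Foxa3 (-0.81, adjusted p = 8.65e-08) fell, and Alb did not pass the test (-0.11, adjusted p = 0.125). Markers of 4 endothelial genes summed to at most 0.144 CPM in any library, with Tek at 0 on only 48 bases of its own. Pecam1, Cdh5 and Kdr have 821, 3995 and 5924 such bases and held 1, 3 and 13 counts over the 6 libraries. The 4 macrophage markers summed to at most 1.83 CPM, with Ptprc at 0 on 429 bases of its own. Most of that sum was Lyz2, at 0.815 CPM with Crebl2 siRNA and 1.466 CPM with Luc siRNA, which fell (log2 fold change -0.84, edgeR adjusted p = 0.0208). The 6 fibroblast markers summed to 119 to 131 CPM with Crebl2 siRNA and 176 to 182 CPM with Luc siRNA, with Dcn lowered (log2 fold change -0.55, edgeR adjusted p = 4.21e-07) and Col3a1 at 0. Most of both sums was Dcn, at 112 to 122 CPM with Crebl2 siRNA and 166 to 173 CPM with Luc siRNA. Col1a1 did not pass the test (log2 fold change -0.215, edgeR adjusted p = 0.146), and Col1a2, Lum and Pdgfra held 6, 5 and 2 counts over the 6 libraries. The 4 mesothelial markers summed to 140 to 168 CPM with Crebl2 siRNA and 175 to 200 CPM with Luc siRNA, with Wt1 at 0. Within this list Krt19 rose (log2 fold change 0.30, edgeR adjusted p = 0.00302), while Msln (-2.06, adjusted p = 1.89e-10) and Upk3b (-2.08, adjusted p = 4.08e-09) fell. The part of these marker differences in the results was not tested.

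Within the p53 set the response was uneven. Gadd45a fell to 47.2% of its Luc siRNA level, Ccng1 fell to 77.9% and Mdm4 rose 1.15-fold, while Cdkn1a, Sesn1, Phlda3 and Trp53inp1 did not pass the test. That is 3 of 7 tested genes changed, 1 raised and 2 lowered, at an edgeR adjusted p under 0.05 over all genes. Of all 11616 genes tested 38.9% changed, 18.8% upward and 20.1% downward, so the share of changed genes in the set lay near the background. The median log2 fold change of the 7 genes was 0.05, against 0.01 for all genes tested. The groups did not overlap in 4 of the 7 genes and in 48.8% of all genes.

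Levels of the 7 tested genes were compared with each other as CPM per 1000 bases of their own, which assumes even coverage of those bases. On that scale the most abundant transcript among these 7 genes was that of Cdkn1a, at 572 ± 21.8 in Crebl2 siRNA libraries and 542 ± 11.5 in Luc siRNA libraries (SD, n = 3 each). It was followed by Ccng1 (383 ± 21.4 with Crebl2 siRNA and 493 ± 14.5 with Luc siRNA), Phlda3 (340 ± 16.8 and 329 ± 11.8), Trp53inp1 (170 ± 12.99 and 166 ± 7.25), Gadd45a (47.8 ± 4.62 and 101 ± 3.77) and Mdm4 (28.1 ± 1.55 and 24.5 ± 0.594). Sesn1 came last of the 7, at 1.88 ± 0.187 with Crebl2 siRNA and 1.75 ± 0.167 with Luc siRNA for its longer transcript. The order was the same in both groups, and no neighbours in it overlapped within a group.

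**Figure D2:**
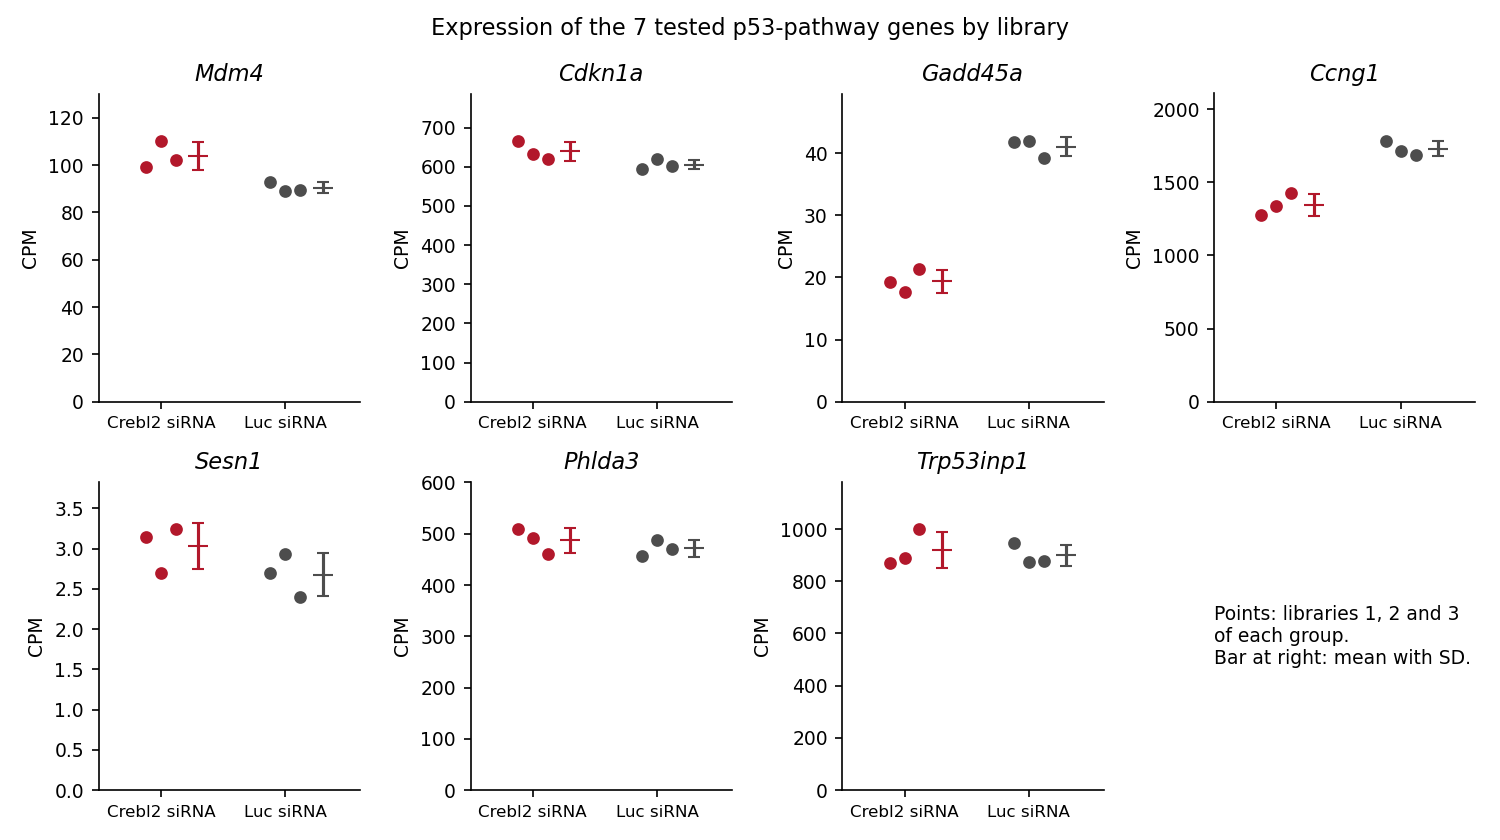
CPM of the 7 tested genes in each library (points; y axis from 0), with the mean and SD of each group at the right of its points. The Crebl2 siRNA libraries lie below all Luc siRNA libraries for Gadd45a and Ccng1, above them for Mdm4 and Cdkn1a, and overlap them for Sesn1, Phlda3 and Trp53inp1.

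Mdm4, the p53 inhibitor that lacks effective ligase activity of its own, was the only tested gene of the set that rose. It lies on the minus strand of chromosome 1, and 99.7% of its counts fell on transcript Mdm4-210 (132986220 to 133025416, GRCm38), whose 3685 own bases are almost all 3′ UTR. Gene expression was 99.2, 110 and 102 CPM in Crebl2 siRNA libraries, against 93.1, 88.9 and 89.4 CPM in Luc siRNA libraries. Every Crebl2 siRNA library exceeded every Luc siRNA library, with Crebl2 siRNA replicate 2 the highest. The log2 fold change was 0.20 (SE 0.0552; 95% interval 0.08 to 0.32; edgeR adjusted p = 0.00861). Without Crebl2 siRNA replicate 2, the library with the low mitochondrial share, it was 0.16 and no longer passed the test (edgeR adjusted p = 0.0684, in a range of 0.0025 to 0.0684 over 14 alternative settings). Mdm4 passed only narrowly without Luc siRNA replicate 2 (edgeR adjusted p = 0.0479) and without Luc siRNA replicate 3 (0.046). The call thus depends on the libraries included, and the part of the low mitochondrial share was not tested. Transcript Mdm4-206, which ends in a different 3′ UTR and has 3673 bases of its own, held 28 counts with Crebl2 siRNA and 19 with Luc siRNA. The ratio was 1.48 (95% exact binomial interval 0.795 to 2.80, counting error only).

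Cdkn1a encodes p21, the cyclin-dependent kinase inhibitor through which p53 halts the cell cycle. It ranked highest of the 7 tested genes per own base, a scale that assumes even coverage. By CPM it stood below Ccng1 and Trp53inp1. Its expression was 667, 632 and 620 CPM in Crebl2 siRNA libraries, against 595, 619 and 602 CPM in Luc siRNA libraries. The groups were separated by less than 1 CPM, between 620 CPM in Crebl2 siRNA replicate 3 and 619 CPM in Luc siRNA replicate 2. The log2 fold change was 0.08 (SE 0.0471; 95% interval -0.02 to 0.18) and did not pass the test (edgeR adjusted p = 0.202). With library size alone in place of TMM scaling it was 0.13 and passed (edgeR adjusted p = 0.0328, in a range of 0.0328 to 0.464 over 14 settings). That scaling moved the median log2 fold change of all genes to 0.05.

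The transcripts of Cdkn1a were counted apart. Over the whole set, 10 transcript rows were tested, of which the main row of Mdm4 rose and the rows of Gadd45a and Ccng1 fell, where 37.4% of 12542 rows changed, 18.0% upward and 19.3% downward. The Mdm4 row lost its call without Crebl2 siRNA replicate 2 (edgeR adjusted p = 0.0883) and without Luc siRNA replicate 3 (0.0519), in a range of 0.00238 to 0.0883 over the settings tried for rows. The main transcript of Cdkn1a, from the downstream start at position 29093769 of chromosome 17, took 99.8% of the counts, over 1114 own bases that are mostly 3′ UTR. Cdkn1a-202 starts 2790 bases upstream, at position 29090979, the start whose window holds the p53 element shown above, 51 to 32 bases before it. Its 123 own bases, all 5′ UTR of its first exon, held 21, 15 and 12 counts in Crebl2 siRNA libraries and 7, 6 and 12 in Luc siRNA libraries. The lowest Crebl2 siRNA library thus had as many counts as the highest Luc siRNA library. The ratio of summed counts was 1.92 (95% exact binomial interval 1.16 to 3.25). That interval covers counting error only and not the variation between libraries. The row had a log2 fold change of 0.93 (SE 0.386) that did not pass the test over all transcript rows (edgeR adjusted p = 0.0678). It passed without Crebl2 siRNA replicate 3 (edgeR adjusted p = 0.0495) and without Luc siRNA replicate 3 (0.0405), in a range of up to 0.253 over the settings tried for rows. Cdkn1a-203, which starts further downstream, held 31, 26 and 25 counts with Crebl2 siRNA and 35, 25 and 22 with Luc siRNA. The ratio was 1.00 (0.728 to 1.38, counting error only). A test of unequal change among the 3 rows of Cdkn1a did not pass (edgeR adjusted p = 0.284), where 9.33% of 943 genes did.

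Gadd45a, a small stress protein that binds p21 and PCNA and takes part in DNA damage arrest and demethylation, had the largest change of the set. It lies on the minus strand of chromosome 6 (67035096 to 67037406). All its counts were assigned to its longest listed transcript, over 405 own bases, of which 363 are 3′ UTR and 42 are 5′ UTR. Its transcripts Gadd45a-206 and Gadd45a-207 have 0 bases of their own, so their 0 counts say nothing about their level. Counts were 536, 488 and 591 in Crebl2 siRNA libraries and 1191, 1173 and 1065 in Luc siRNA libraries. Expression was 19.2, 17.6 and 21.3 CPM in Crebl2 siRNA libraries, against 41.7, 42.0 and 39.3 CPM in Luc siRNA libraries. The highest Crebl2 siRNA library reached 21.3 CPM and the lowest Luc siRNA library 39.3 CPM, so the gap between the groups exceeded the range within either. In RNA from a whole culture, fewer cells with the transcript and less transcript per cell cannot be told apart. The log2 fold change was -1.08 (SE 0.0755; 95% interval -1.24 to -0.92; edgeR adjusted p = 1.42e-08), and 3.24% of all genes had a larger change in either direction.

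Ccng1 encodes cyclin G1, an atypical cyclin that recruits phosphatase 2A to Mdm2. It also fell, and its window has a p53 element with 1 mismatch 195 to 176 bases before its RefSeq start. Its single listed transcript on the minus strand of chromosome 11 (40748552 to 40755311) was counted over all 3512 bases, of which 885 are coding. Expression was 1278, 1335 and 1427 CPM in Crebl2 siRNA libraries, against 1786, 1714 and 1687 CPM in Luc siRNA libraries. All Crebl2 siRNA libraries lay below all Luc siRNA libraries. The log2 fold change was -0.36 (SE 0.0509; 95% interval -0.47 to -0.25; edgeR adjusted p = 3.22e-05).

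Sesn1, a sestrin that restrains mTORC1 and supports antioxidant defence, was measured on few reads. It had 3.15, 2.70 and 3.24 CPM in Crebl2 siRNA libraries and 2.70, 2.94 and 2.40 CPM in Luc siRNA libraries. The groups overlapped, and the log2 fold change was 0.18 (SE 0.154; 95% interval -0.15 to 0.50; edgeR adjusted p = 0.393). Its longer transcript Sesn1-202 from the upstream start held 71, 65 and 79 counts with Crebl2 siRNA and 70, 72 and 58 with Luc siRNA. The shorter transcript from the downstream start, whose window holds the element AAGCTTGTTTTTGCTGGCCT with 3 mismatches, held 17, 10 and 11 counts with Crebl2 siRNA and 7, 10 and 7 with Luc siRNA. The ratios were 1.08 (95% exact binomial interval 0.884 to 1.31) for the longer and 1.59 (0.927 to 2.76) for the shorter transcript. These intervals cover counting error only, and the rows did not differ in their change by the row usage test (edgeR adjusted p = 0.482).

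Phlda3, a pleckstrin homology protein that competes with Akt for membrane lipids, had 509, 492 and 461 CPM in Crebl2 siRNA libraries and 456, 489 and 470 CPM in Luc siRNA libraries. The ranges overlapped, with a log2 fold change of 0.05 (SE 0.0503; 95% interval -0.06 to 0.16; edgeR adjusted p = 0.478). Trp53inp1, a nuclear stress protein that promotes p53 phosphorylation and autophagy, had 870, 890 and 1000 CPM in Crebl2 siRNA libraries and 945, 875 and 878 CPM in Luc siRNA libraries. Its highest value was in Crebl2 siRNA replicate 3 and its lowest in Crebl2 siRNA replicate 1, so that the Crebl2 siRNA group spanned the Luc siRNA group. The log2 fold change was 0.03 (SE 0.0565; 95% interval -0.09 to 0.15; edgeR adjusted p = 0.681). Both genes were well counted, and their intervals bound the log2 change at 0.16 and 0.15 upward without showing that the groups were alike.

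The exact two-sided permutation test over libraries, on log2 CPM, gave p = 0.1 for Mdm4, Cdkn1a, Gadd45a and Ccng1, the smallest that 3 against 3 libraries allow. The same exact test gave p = 0.2 for Sesn1, 0.4 for Phlda3 and 0.7 for Trp53inp1.

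**Figure D3:**
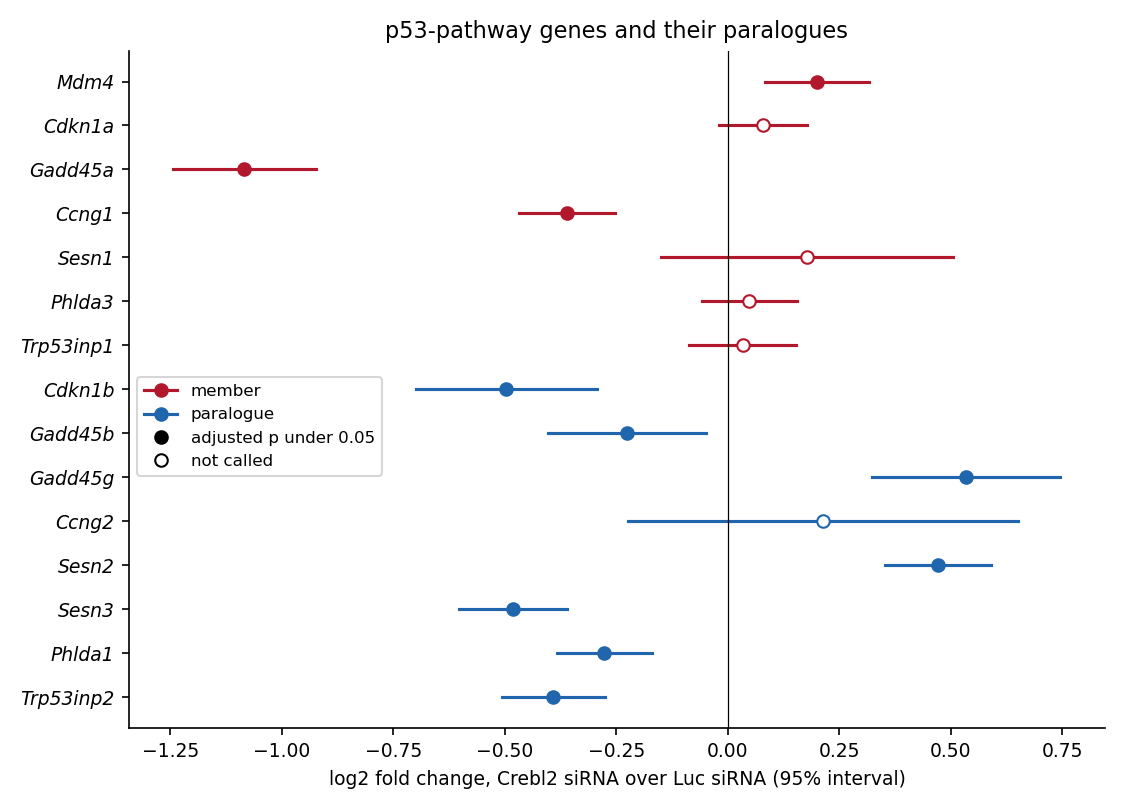
Log2 fold change of Crebl2 siRNA over Luc siRNA with its 95% interval for the 7 tested genes (red) and the 8 tested paralogues (blue); filled points passed the test and open points did not. Gadd45a (-1.08) lies furthest from 0, and Gadd45g (0.54) lies on the other side of 0 from Gadd45a and Gadd45b.

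The closest relatives of these genes were read beside them. Of 12 paralogues listed, 8 were tested, 2 rose and 5 fell, against 18.8% and 20.1% of all genes. In the Gadd45 family, Gadd45b, induced by TGF-beta and NF-kB signals, fell to 12.98 ± 0.281 CPM in Crebl2 siRNA libraries, against 15.2 ± 0.951 CPM in Luc siRNA libraries (SD, n = 3 each; log2 fold change -0.23, edgeR adjusted p = 0.0418). Gadd45g rose, at 15.8 ± 2.03 CPM with Crebl2 siRNA and 10.9 ± 0.480 CPM with Luc siRNA (SD, n = 3 each; log2 fold change 0.54, edgeR adjusted p = 0.00045). The 3 Gadd45 genes thus did not move in 1 direction. In the sestrin family, Sesn2, also a p53 target and an ATF4 target, rose (log2 fold change 0.47, edgeR adjusted p = 5.49e-06), and Sesn3, a FoxO target, fell to 1230 ± 71.8 CPM with Crebl2 siRNA, against 1717 ± 115 CPM with Luc siRNA (SD, n = 3 each; log2 fold change -0.48, edgeR adjusted p = 5.55e-06). Cdkn1b, the p27 relative of p21, fell (log2 fold change -0.50, edgeR adjusted p = 0.00059), as did Phlda1 (-0.28, adjusted p = 0.000367) and Trp53inp2 (-0.39, adjusted p = 2.73e-05). Ccng2, the FoxO-responsive relative of cyclin G1, had a log2 fold change of 0.21 and did not pass the test (edgeR adjusted p = 0.445). The p53 relatives Trp63 and Trp73 held 0 counts in all libraries, with 2321 and 570 bases of their own, while Cdkn1c and Phlda2, also at 0, had 95 and 757.

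The regulators that act on p53 protein showed changes in both directions. Of 24 regulators listed, 20 were tested, 7 rose (35%) and 2 fell (10%), against 18.8% and 20.1% of all genes tested, with a median log2 fold change of 0.07. The kinase Atm, which phosphorylates p53 after double-strand breaks, rose to 73.6 ± 11.7 CPM in Crebl2 siRNA libraries, against 52.4 ± 7.38 CPM in Luc siRNA libraries (SD, n = 3 each; log2 fold change 0.49, edgeR adjusted p = 0.00123). The groups of Atm nearly met, at 61.14 CPM in Crebl2 siRNA replicate 1 and 60.51 CPM in Luc siRNA replicate 1. Its highest value, 84.45 CPM, was in Crebl2 siRNA replicate 2, the library with the low mitochondrial share. Hipk2, a kinase that phosphorylates p53 for apoptosis, rose by 0.43 on the log2 scale (edgeR adjusted p = 0.000886), Ppp1r13l, which encodes the p53 inhibitor iASPP, by 0.42 (0.000546), and Trim28, a corepressor that works with Mdm2, by 0.17 (0.0101). The ubiquitin ligase Rchy1, or Pirh2, fell to 2.54 ± 0.206 CPM with Crebl2 siRNA, against 3.84 ± 0.364 CPM with Luc siRNA (SD, n = 3 each; log2 fold change -0.60, edgeR adjusted p = 0.00425). Ppp1r13b, which encodes ASPP1, a cofactor of p53 in apoptosis, fell by 0.22 on the log2 scale (edgeR adjusted p = 0.00801). The count of raised regulators fell to 4 without Crebl2 siRNA replicate 2, without Luc siRNA replicate 2 and without Luc siRNA replicate 3.

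Other p53 targets were likewise split. Of 51 listed in 3 groups, 43 were tested, 14 rose (32.6%) and 8 fell (18.6%), against 18.8% and 20.1% of all genes tested, with a median log2 fold change of 0.07. Among 14 tested targets in the cell cycle and signalling, 5 rose (35.7%) and 3 fell (21.4%), beside the same shares of all genes. Gtse1, a G2 and S phase protein that ferries p53 out of the nucleus, rose to 238 ± 9.92 CPM in Crebl2 siRNA libraries, against 139 ± 1.86 CPM in Luc siRNA libraries (SD, n = 3 each; log2 fold change 0.78, edgeR adjusted p = 6.16e-09). The phosphatase Ptprv rose by 0.79 on the log2 scale (edgeR adjusted p = 2.58e-05), the repressor E2f7 by 0.37 (0.0062) and the spindle protein Ckap2 by 0.26 (0.000485). Btg2, an antiproliferative partner of the CCR4-NOT deadenylase, fell to 209 ± 2.70 CPM with Crebl2 siRNA, against 310 ± 9.73 CPM with Luc siRNA (SD, n = 3 each; log2 fold change -0.57, edgeR adjusted p = 9.81e-08). The paraspeckle RNA Neat1 fell by 0.99 on the log2 scale (edgeR adjusted p = 0.000858), with a wide spread between libraries, at 7.91 ± 2.34 CPM with Crebl2 siRNA and 15.7 ± 4.54 CPM with Luc siRNA (SD, n = 3 each).

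In apoptosis, 4 of 12 tested targets rose by edgeR (33.3%, against 18.8% of all genes) and 0 fell (against 20.1%), 0 also at an unadjusted p under 0.05. DESeq2 called 3 raised and 0 lowered. Pidd1, which nucleates the caspase-2 platform, rose to 15.9 ± 0.569 CPM in Crebl2 siRNA libraries, against 8.84 ± 0.434 CPM in Luc siRNA libraries (SD, n = 3 each; log2 fold change 0.84, edgeR adjusted p = 1.18e-06). Siva1 rose by 0.37 on the log2 scale (edgeR adjusted p = 0.0018), the BH3-only gene Bbc3, or PUMA, by 0.26 (0.00364) and the death receptor Fas by 0.17 (0.0477). Bax, which encodes a pore-forming effector, has 66 bases of its own and was not tested.

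In repair, metabolism and autophagy, 5 of 17 tested targets rose and 5 fell (29.4% each, against 18.8% and 20.1% of all genes). The proline pathway enzyme Aldh4a1 rose to 91.5 ± 3.66 CPM in Crebl2 siRNA libraries, against 57.9 ± 2.37 CPM in Luc siRNA libraries (SD, n = 3 each; log2 fold change 0.66, edgeR adjusted p = 1.46e-07). Raised with it were Sesn2, the excision nuclease Ercc5 (log2 fold change 0.36, edgeR adjusted p = 1.85e-05), the glutathione peroxidase Gpx1 (0.66, adjusted p = 0.000274) and the glutaminase Gls2 (0.42, adjusted p = 0.000307). Rrm2b, the p53-inducible ribonucleotide reductase subunit, fell to 43.7 ± 2.85 CPM with Crebl2 siRNA, against 55.6 ± 2.17 CPM with Luc siRNA (SD, n = 3 each; log2 fold change -0.35, edgeR adjusted p = 0.000374).

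**Figure D4:**
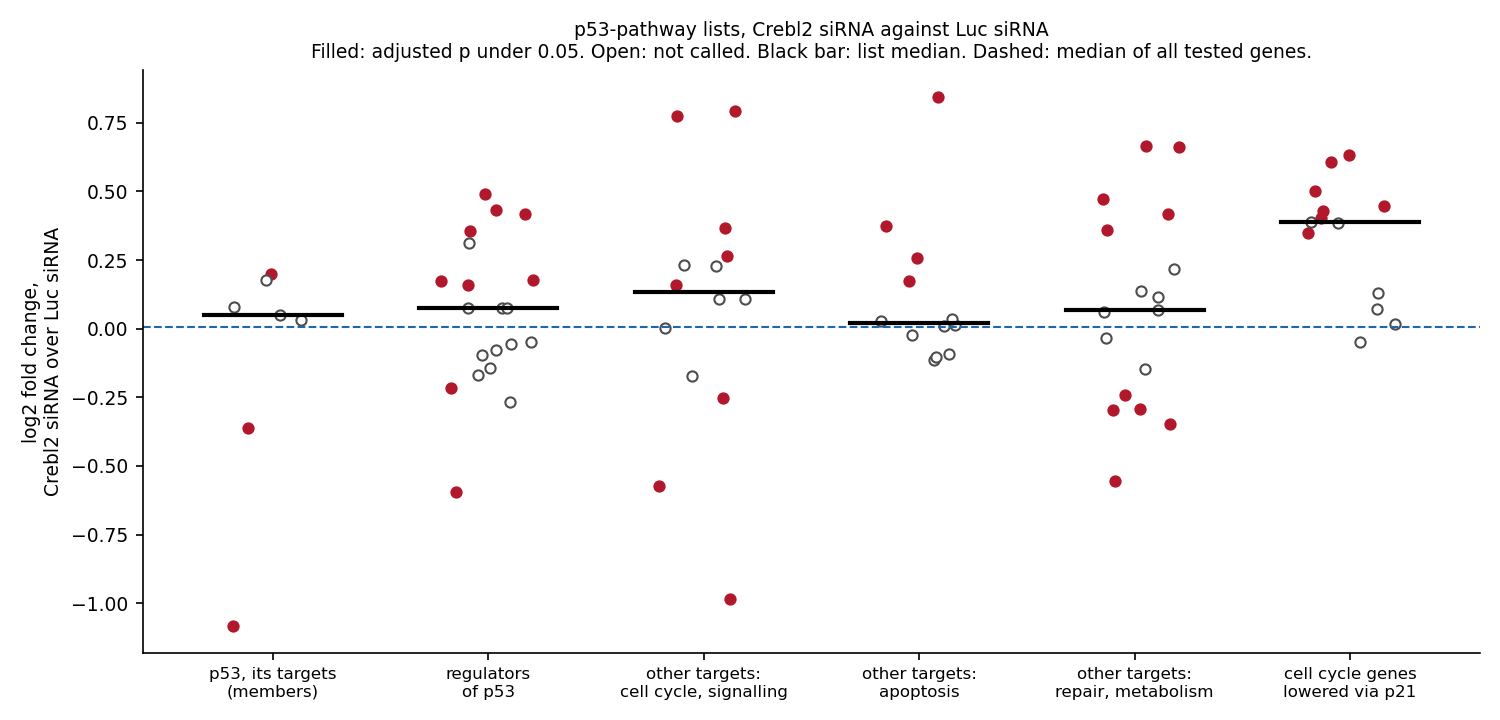
Log2 fold change of Crebl2 siRNA over Luc siRNA for each tested gene of 6 lists (points; filled where the adjusted p was under 0.05), with the median of each list (black bar) and of all genes tested (dashed line, 0.01). The p53 set, the regulators and the 3 groups of other targets have points on both sides of 0, and the cell cycle genes have a median of 0.39.

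Cell cycle genes that p53 lowers indirectly, through p21 and the DREAM repressor complex, were read as a further group. Of 13 tested, 7 rose by edgeR (53.8%, against 18.8% of all genes) and 0 fell (against 20.1%), 0 also at an unadjusted p under 0.05. The median log2 fold change was 0.39, and DESeq2 gave the same counts of 7 and 0. The checkpoint kinase Bub1b rose to 202 ± 4.06 CPM in Crebl2 siRNA libraries, against 143 ± 8.16 CPM in Luc siRNA libraries (SD, n = 3 each; log2 fold change 0.50, edgeR adjusted p = 1.47e-06), and cyclin A2 (Ccna2) rose by 0.63 on the log2 scale, the mitotic kinase Plk1 by 0.45, the activator Mybl2 by 0.40, the anaphase activator Cdc20 by 0.35 and the survivin gene Birc5 by 0.43, with edgeR adjusted p between 7.12e-06 and 0.0108. Cdkn1a itself, as given above, had a log2 fold change of 0.08 in the same libraries.

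A word of 7 bases, GAAATGT, was found in an earlier analysis of these counts to be frequent in the 3′ UTR of lowered genes. Its shares below come from the same counts, so they are a description and no separate test, and they were not adjusted for 3′ UTR length. Among genes with an annotated 3′ UTR, it occurred in 635 of 2180 lowered genes (29.1%), 958 of 5788 genes not called (16.6%) and 225 of 1890 raised genes (11.9%), with median 3′ UTRs of 1385, 996 and 986 bases. The annotated 3′ UTRs of the lowered Gadd45a (563 bases) and Ccng1 (2316 bases) do not hold it. It occurred 1 time in Mdm4 (5436 bases), which rose, and 1 time in Trp53inp1 (4420 bases), which did not pass the test.

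**Figure D5:**
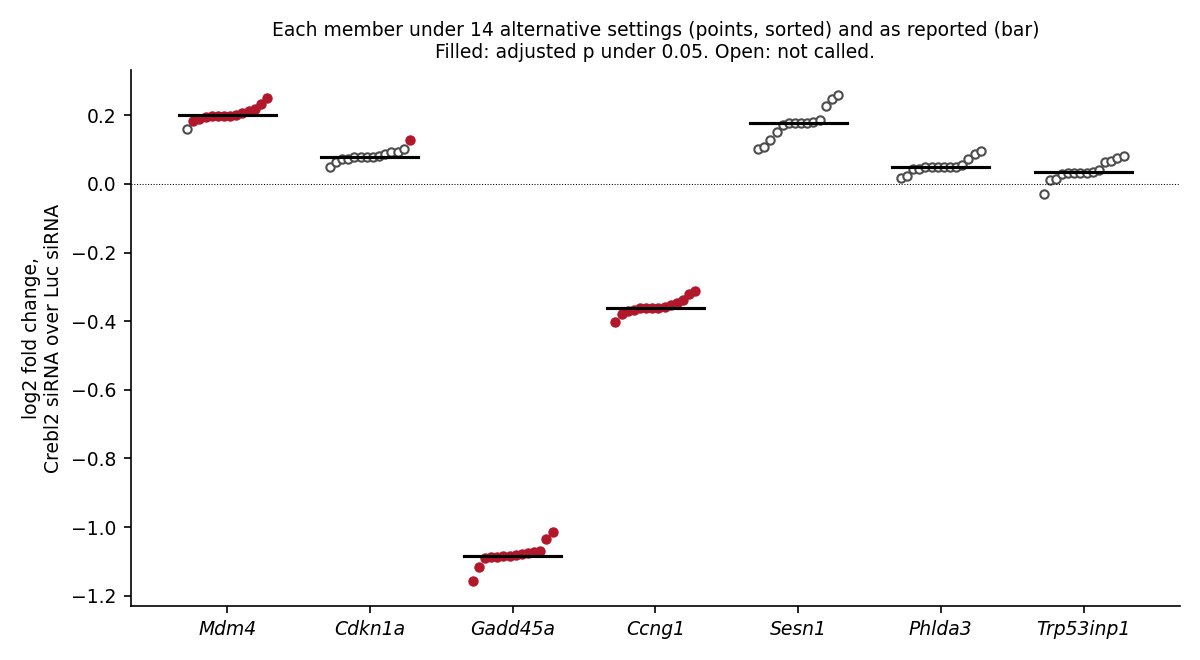
Log2 fold change of Crebl2 siRNA over Luc siRNA of the 7 tested genes as reported (bars) and under 14 alternative settings (points, sorted by value; filled where the adjusted p was under 0.05). Gadd45a stays between -1.16 and -1.01 and Ccng1 between -0.40 and -0.31, and Mdm4 has 1 open point.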

How the data were processed

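Total RNA was sequenced from stranded libraries, per the labels' protocols. Each of the 6 deposited tables lists unnormalised counts for 58611 Ensembl transcripts. The programs Trim Galore, HTSeq and TopHat and the builds mm9 and GRCm38 are named in the submitters' processing notes; versions, roles and strand settings are not given in the sources used here. Among those transcripts, 58264 matched GENCODE M21 (GRCm38), and the 347 others took no more than 0.0497% of the counts in any library. Counts were summed per gene. Genes and rows were tested with edgeR 4.0.16 (R 4.3.3; two-sided quasi-likelihood test) after TMM scaling, filterByExpr and Benjamini-Hochberg adjustment, and row usage with diffSpliceDGE. CPM used TMM-scaled library sizes; SEs came from the fold change and its F statistic. DESeq2 1.42.0 and limma-voom (limma 3.58.1) were alternatives. The procedure was also run on simulated counts, and the outcome is not given here. The genes, lists and tests were chosen with earlier results of these data known.

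Named genes were all 10 members, Crebl2, every tested paralogue and, of each other list, up to 6 called genes with the smallest p, besides transcript rows with at least 60 counts. Genes named outside this rule, such as Bax and the markers, were given to describe what was counted. A search for genes whose pattern resembles that of Trp53 was not possible, since Trp53 held 0 counts. No 2 libraries held identical values.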

Additional observations from a re-analysis of the deposited data

How the results depend on the processing

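Under 14 alternative settings, Gadd45a (log2 fold change -1.16 to -1.01) and Ccng1 (-0.40 to -0.31) were lowered and passed the test in each, and Crebl2 likewise. Mdm4 (0.16 to 0.25) passed in 13, the exception being the fit without Crebl2 siRNA replicate 2. Phlda3, Sesn1 and Trp53inp1 passed in 0, and the value of Trp53inp1 ran from -0.03 to 0.08. Cdkn1a (0.05 to 0.13) passed in 1, library size alone, where 2 genes of the set and 2 of its transcript rows were raised instead of 1. Leaving out single libraries, 0 to 1 genes of the set, 0 to 2 of its rows and 4 to 7 regulators of p53 were raised, with 0 in the set and its rows without Crebl2 siRNA replicate 2. Without Luc siRNA replicate 3 the raised row was Cdkn1a-202 in place of Mdm4-210. The cause was not tested. DESeq2 called 1944 genes raised and 2162 lowered, against 2180 and 2338 by edgeR.

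No pairing by replicate number was visible, as the deviations from group means of same-numbered libraries correlated at -0.173, -0.0612 and -0.107. The labels state no pairing, and so few libraries cannot exclude one. With the replicate number as a block, 4 regulators of p53 were raised instead of 7, 1882 genes were raised and 2101 lowered, and the counts for the set, its rows, the paralogues, the pooled other targets and the cell cycle genes moved by less than 1.5 times. The single groups of other targets were not run under the block. No library correlated best with its own number.

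Low counts limited Mdm2, Zmat3, Sesn1 and the minor rows of Cdkn1a, and Mdm2 and Zmat3 have only 46 and 125 bases of their own. Of 17 listed genes not tested, 7 had at most 200 bases of their own.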
